A study of Mus musculus with 24 samples.

Results

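The 9 transcription factors described here, Gata4, Gata5, Gata6, Cdx1, Cdx2, Pdx1, Onecut2, Hnf4a and Hnf4g, are non-Hox genes known to set small intestinal (SI) or colonic identity. They were chosen by name from the 45513 genes counted in each library, and all 9 were found by symbol. RNA had been sequenced in bulk from sorted epithelial cells of adult C57BL/6 mice, in 4 groups of 6 libraries: SI and colon, each from WT and from 9S/T-A mice. Every mouse was homozygous for a CreERT2 placed downstream of the Atoh1 coding sequence at its own locus and carried a tdTomato (tdTom) reporter at R26R. WT mice kept the normal ATOH1 sequence (Atoh1(WT)CreERT2), whereas in 9S/T-A mice (Atoh1(9S/T-A)CreERT2) 9 serine or threonine residues followed by proline were changed to alanine. All mice had received 1 dose of 3 mg tamoxifen, and live EpCAM+ tdTom+ cells were collected the day after from crypt fractions of the proximal SI and of the colon. Because Cre followed Atoh1, the factor that commits cells to the secretory lineage, the values are levels in labelled secretory cells, mainly goblet cells and in the SI also Paneth cells, and not in the whole epithelium.

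These factors bind DNA in different ways but act on the same epithelium. The GATA proteins are zinc finger factors, and GATA4 is known for keeping jejunal genes on and ileal genes off in the proximal SI. CDX1 and CDX2 are caudal homeobox proteins, and CDX2 keeps intestinal epithelium from taking a gastric fate. PDX1 is a homeobox protein of duodenum and pancreas, ONECUT2 a cut homeobox protein, and HNF4A and HNF4G are nuclear receptors that act together on genes of the brush border and of lipid handling.

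The question put to the data was how these genes were set in SI and colon secretory cells, and whether the phosphosite mutant of ATOH1 moved them. Total counts per library ranged from 36.0 M to 65.8 M, and the 20 most abundant genes held 37.2% to 44.8% of counts in SI libraries but 12.3% to 19.4% in colon libraries. Levels are therefore given as CPM, read counts scaled to library size with TMM factors, which sets libraries to a common level over most genes. Goblet markers (6 genes) summed to 214000 to 358000 CPM in SI and to 31200 to 75300 CPM in colon, and Paneth markers (5 genes) to 37700 to 72200 CPM in SI and 163 to 1420 CPM in colon. Markers of other epithelial cells were also present, with absorptive markers (6 genes) at 1220 to 4180 summed CPM in SI and 267 to 580 in colon, and enteroendocrine markers (6 genes) at 150 to 436 and 41.0 to 97.7. Tuft markers (3 genes) were at 10.5 to 70.0 CPM in SI and 6.88 to 29.5 in colon, and stem cell markers (4 genes) at 541 to 1090 and 30.2 to 53.5. In WT SI the goblet sum was led by Fcgbp and the stem sum by Olfm4. Fcgbp averaged 150800 CPM in WT SI and 9949 in WT colon, and Olfm4 785 and 0.827. Agr2 (3368 and 3730 CPM) and Ascl2 (6.22 and 4.94 CPM) were not called between tissues in WT. In WT 5 of 6 goblet and 3 of 4 stem markers were called, all lower in colon. So were 5 of 5 Paneth, 6 of 6 enteroendocrine and 3 of 3 tuft markers. Of 6 absorptive markers 4 were called lower and 2 (Car1 and Aqp8) higher. Of all 16979 tested genes, 30.4% were called lower and 33.1% higher. Ang4 averaged 315.5 CPM in WT colon, most of the Paneth sum there. The part of these markers in the tissue differences was not tested. Stromal markers summed to 2.87 CPM at most. The leukocyte list reached 2850 CPM in SI, nearly all of it Lyz2, a close paralog of the Paneth gene Lyz1, while Ptprc, the pan-leukocyte surface phosphatase CD45, stayed at or under 9.74 CPM. In bulk RNA, fewer cells of a type and less RNA per cell cannot be told apart. Atoh1 itself was at 79.1 to 121 CPM in WT SI and 57.7 to 90.1 CPM in 9S/T-A SI. In colon it was at 84.1 to 124 CPM in WT and 67.0 to 108 CPM in 9S/T-A. The labelled cells of all 4 groups thus expressed Atoh1, with lower but overlapping ranges in 9S/T-A. Counts per gene do not show the substitutions.

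In the GRCm38 coordinates of the count files, Gata4 lies on chromosome 14 (63198922 to 63271692, minus strand), Gata5 on chromosome 2 (180325133 to 180334699, minus), Hnf4a on chromosome 2 (163506808 to 163572910, plus) and Hnf4g on chromosome 3 (3508030 to 3658052, plus). Pdx1 (147269959 to 147278008, plus) and Cdx2 (147300805 to 147307270, minus) are close neighbours on chromosome 5. Values cover all annotated exons of a gene, so alternative promoters and isoforms are summed. None of the 50-base windows of any member's GENCODE M21 transcripts occurred in a transcript of another gene. Reads that match these transcripts exactly could therefore not be shared between paralogs. The spans of Gata6, Pdx1 and Onecut2 in the count files differ from that annotation. For Pdx1, 2109 windows stood against 4318 counted exon bases, so part of its counted sequence was not checked.

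RefSeq start site windows (GRCm38.p6, 250 bases before to 50 bases after the start) were at hand for 4 of the 9 genes and are shown for those, because they include both SI-restricted genes (Gata5, Pdx1) and genes present in both tissues (Cdx2, Hnf4a). They are chr2:180334630-180334929 (minus strand) for Gata5, chr5:147269847-147270146 (plus) for Pdx1, chr5:147307200-147307499 (minus) for Cdx2 and chr2:163506607-163506906 (plus) for the upstream start of Hnf4a, written 5′ to 3′ on the strand of the gene. Capitals mark a GATA motif.
Gata5: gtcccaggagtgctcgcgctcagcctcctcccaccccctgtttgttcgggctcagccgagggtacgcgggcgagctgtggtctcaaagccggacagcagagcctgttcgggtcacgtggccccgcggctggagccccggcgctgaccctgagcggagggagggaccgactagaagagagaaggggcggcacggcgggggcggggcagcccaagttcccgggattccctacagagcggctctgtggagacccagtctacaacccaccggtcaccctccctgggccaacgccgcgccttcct
Pdx1: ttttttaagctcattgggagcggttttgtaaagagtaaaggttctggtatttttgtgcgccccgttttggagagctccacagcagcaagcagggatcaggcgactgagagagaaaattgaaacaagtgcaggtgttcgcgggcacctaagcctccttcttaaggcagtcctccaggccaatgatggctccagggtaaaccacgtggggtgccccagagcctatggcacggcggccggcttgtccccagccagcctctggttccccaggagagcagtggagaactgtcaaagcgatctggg
Cdx2: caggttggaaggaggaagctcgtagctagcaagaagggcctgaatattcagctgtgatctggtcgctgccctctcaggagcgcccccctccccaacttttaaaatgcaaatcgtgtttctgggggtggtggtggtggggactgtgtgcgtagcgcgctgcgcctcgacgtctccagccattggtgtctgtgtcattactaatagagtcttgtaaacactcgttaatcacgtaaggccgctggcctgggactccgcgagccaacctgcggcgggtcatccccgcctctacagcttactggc
Hnf4a: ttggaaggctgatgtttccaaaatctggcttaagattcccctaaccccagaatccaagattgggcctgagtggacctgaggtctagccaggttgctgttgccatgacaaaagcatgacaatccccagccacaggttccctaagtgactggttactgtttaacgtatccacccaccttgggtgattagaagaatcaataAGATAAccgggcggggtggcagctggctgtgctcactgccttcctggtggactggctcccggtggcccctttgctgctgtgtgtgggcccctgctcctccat
Both strands were searched for letters that these families are known to bind, namely AGATAA for the GATA factors, TTTATG for the CDX factors, CAAAGTCCA for the HNF4 receptors and the palindromic consensus of HNF1. The single match in the printed windows was AGATAA on the given strand of the upstream Hnf4a window, its first base at −52 from the start. Of 32851 such windows, 11.2% held AGATAA and 11.9% held TTTATG, whereas 0.475% held the HNF4 letters and 0.00913% held the HNF1 consensus. The downstream start of Hnf4a (chr2:163546905-163547204, plus) held none of the 4. The Gata5 window was 69.7% G or C, above 89.9% of windows, against a median of 52.7% and 54.0% to 57.3% in the windows of Hnf4a, Pdx1 and Cdx2. A match is a description of letters and no evidence of binding.

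Between tissues, 4 of the 9 factors were close to absent in colon, 3 were present in both tissues and higher in SI, and the CDX pair was at like levels. In WT cells edgeR called 8 of 9 genes at an adjusted p under 0.05 (7 lower in colon, 1 higher), where 63.6% of all 16979 tested genes were called (30.4% lower, 33.1% higher). In 9S/T-A cells 7 of 9 were called, all lower in colon, where 60.9% of 16938 genes were called (28% lower, 32.9% higher). The median log2 difference (colon minus SI) of the 9 was −1.90 in WT and −1.92 in 9S/T-A, beside 0.03 and 0.04 over all tested genes. Since most genes differed between the tissues, a call says little by itself, and the sizes below carry the description.

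**Figure D1:**
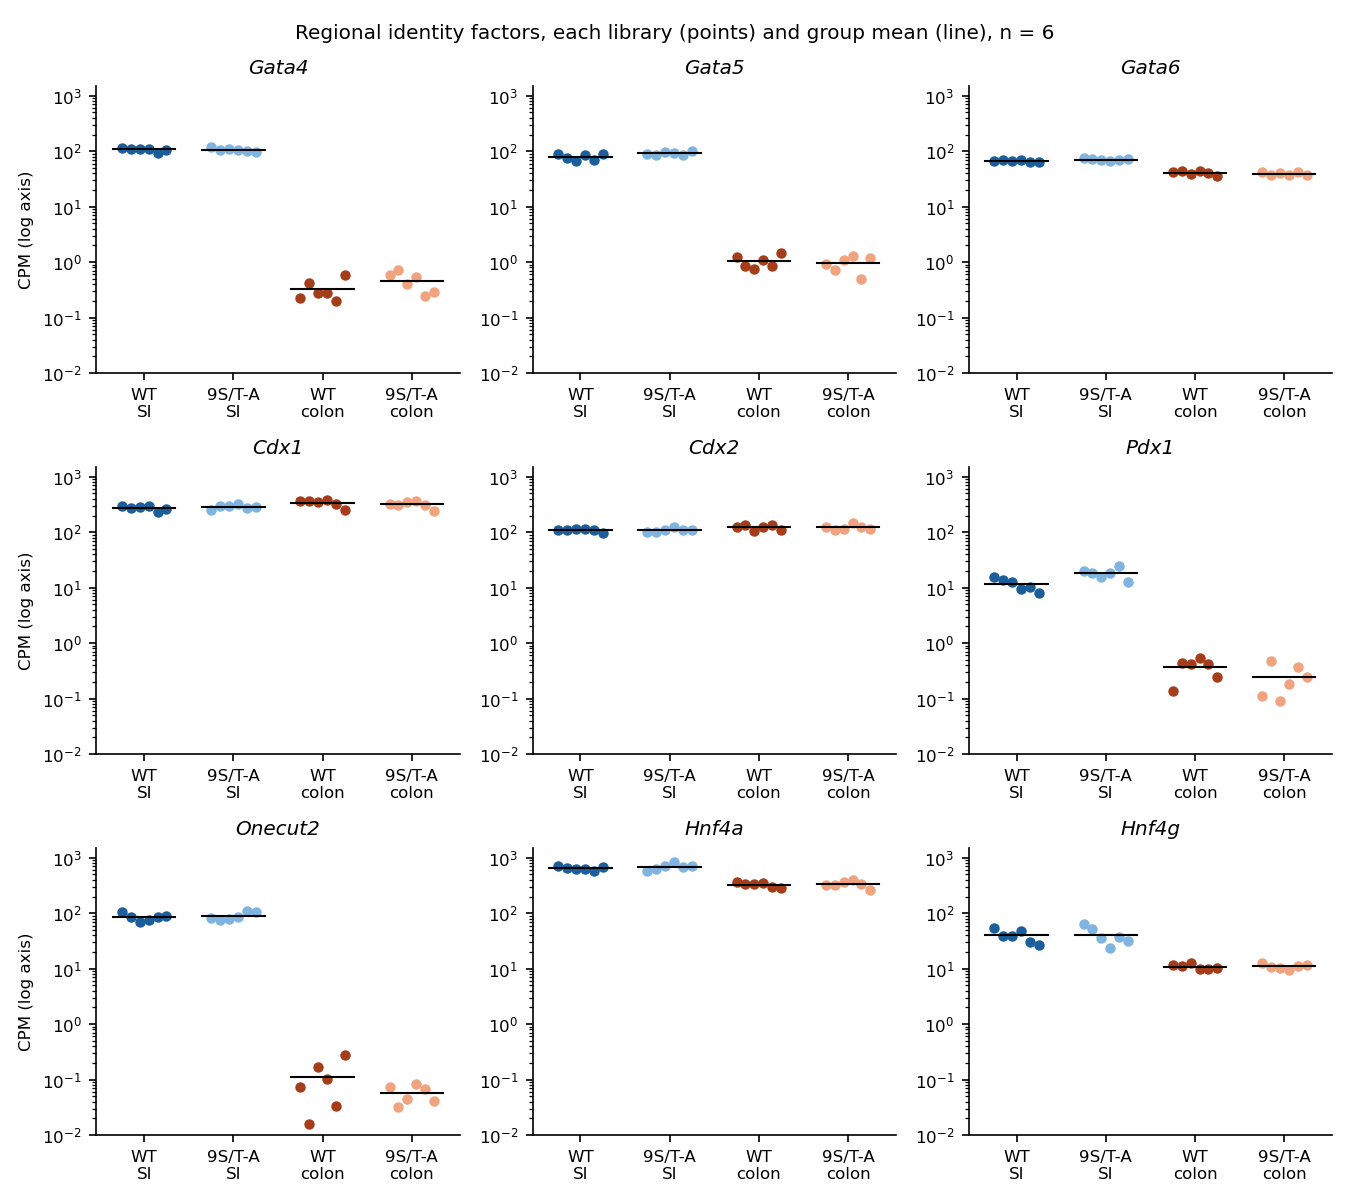
Level of each factor in every library, as TMM-scaled CPM on a log axis, by genotype and tissue (n = 6 libraries a group, line = mean). Gata4, Gata5, Pdx1 and Onecut2 sit between 8.18 and 120 CPM in SI and at or under 1.47 CPM in colon, whereas Cdx1 and Cdx2 overlap between all groups.

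Gata4, the GATA factor of proximal SI, was the member with the sharpest boundary after Onecut2. WT SI libraries ranged from 94.4 to 114 CPM (median 109), and 9S/T-A ones from 95.3 to 120 CPM (median 104). In colon it ranged from 0.197 to 0.582 CPM in WT (median 0.274; 12 to 40 counts a library) and from 0.244 to 0.717 CPM in 9S/T-A (median 0.473; 18 to 48 counts). Every SI library was therefore far above every colon library. The log2 difference was −8.37 ± 0.19 (SE, n = 6 a group, adjusted p = 1.88e-14) in WT and −7.86 ± 0.20 (adjusted p = 1.51e-13) in 9S/T-A.

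Gata5, a second GATA factor of gut endoderm, followed the same pattern with a somewhat higher colonic level. WT SI libraries held 66.7 to 90.8 CPM (median 81.4), and 9S/T-A ones 84.5 to 100.4 CPM (median 90.8). Colon libraries held 0.745 to 1.47 CPM in WT (median 0.965) and 0.488 to 1.30 CPM in 9S/T-A (median 1.01). The log2 difference was −6.28 ± 0.16 in WT (adjusted p = 9.19e-14) and −6.62 ± 0.19 in 9S/T-A (adjusted p = 3.87e-13).

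Gata6, the GATA factor that is expressed along the whole gut, was the one of the 3 that colon cells kept. It was at 63.1 to 70.6 CPM in WT SI (median 67.4), 66.3 to 76.8 CPM in 9S/T-A SI (median 70.9), 35.8 to 43.3 CPM in WT colon (median 41.3) and 37.2 to 41.7 CPM in 9S/T-A colon (median 39.5). Its colon mean was 60.8% of its SI mean in WT and 55.8% in 9S/T-A, with a log2 difference of −0.75 ± 0.06 (adjusted p = 5.18e-08) and −0.87 ± 0.06 (adjusted p = 1.49e-08). With plain library totals in place of TMM scaling the Gata6 difference was −0.04 in WT and −0.07 in 9S/T-A and was not called, while the median of all genes moved to 0.74 and 0.85. Relative to that median it was −0.78 and −0.92 with plain totals and −0.78 and −0.91 with TMM.

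Ratios within a library do not depend on the scaling. Counted per kb of exon, Gata6 made up 26.7% to 30.5% of the summed Gata4, Gata5 and Gata6 level in SI and 94.9% to 98.4% in colon over both genotypes. The GATA sum itself was 72.8 ± 4.88 (WT) and 77.4 ± 2.64 CPM per kb (9S/T-A) in SI, but 13.2 ± 0.871 (WT) and 12.8 ± 0.633 (9S/T-A) in colon (mean ± SD, n = 6). Thus the 3 genes contributed similar shares in SI, and colon cells held a lower GATA level that was almost all Gata6. The log2 ratio of Gata4 to Gata6 lay between 0.11 and 0.46 in SI and between −7.95 and −6.00 in colon.

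Pdx1, the duodenal and pancreatic homeobox factor, was the least abundant member in SI per kb of its counted exon length and varied more between libraries than most. Its SI level ranged from 8.18 to 15.7 CPM in WT (median 11.4), whereas 9S/T-A libraries spanned 12.4 to 24.5 CPM (median 18.2). In colon it ranged from 0.135 to 0.535 CPM in WT (median 0.426) and from 0.0903 to 0.472 CPM in 9S/T-A (median 0.213), from 6 to 37 counts a library. The log2 difference between tissues was −5.02 ± 0.26 in WT (adjusted p = 2.07e-10) and −6.25 ± 0.32 in 9S/T-A (adjusted p = 2.38e-10).

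Onecut2 gave the largest difference between tissues among the 9. Its SI level was 68.1 to 103.7 CPM in WT (median 85.3), whereas 9S/T-A libraries held 76.4 to 107.8 CPM (median 82.8). Colon libraries held 1 to 19 reads in WT and 2 to 6 reads in 9S/T-A, which is 0.0157 to 0.276 CPM and 0.0326 to 0.0831 CPM. The log2 difference was −9.54 ± 0.28 in WT (adjusted p = 3.23e-13) and −10.56 ± 0.19 in 9S/T-A (adjusted p = 3.90e-15), and its size rests on those few colonic reads. WT colon replicate 7, with 19 reads, had the highest colonic level.

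Hnf4a, the main nuclear receptor of intestinal epithelium, was abundant in both tissues. It ranged from 570 to 716 CPM in WT SI (median 644), 584 to 847 CPM in 9S/T-A SI (median 688), 289 to 366 CPM in WT colon (median 335) and 262 to 391 CPM in 9S/T-A colon (median 335). The ranges of SI and colon did not overlap, and the colon mean was 50.8% of the SI mean in WT and 48.2% in 9S/T-A. The log2 difference was −1.01 ± 0.09 (adjusted p = 5.44e-08) and −1.08 ± 0.12 (adjusted p = 1.07e-06). With plain library totals it was −0.30 and −0.28, still called.

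Hnf4g, its paralog, differed more. It was at 26.45 to 54.8 CPM in WT SI (median 39.1), 23.6 to 64.8 CPM in 9S/T-A SI (median 37.1), 9.76 to 12.5 CPM in WT colon (median 10.9) and 9.64 to 12.8 CPM in 9S/T-A colon (median 10.8). SI libraries varied widely, with a coefficient of variation of 26.8% in WT and 36.7% in 9S/T-A, against 9.78% and 10.3% in colon. Sis, a brush border hydrolase of enterocytes, also varied widely in SI, from 146 to 708 CPM (WT) and from 204 to 774 CPM (9S/T-A), and its part in the spread of Hnf4g was not tested. The log2 difference between tissues was −1.90 ± 0.15 (adjusted p = 2.99e-08) in WT and −1.92 ± 0.20 (adjusted p = 6.27e-07) in 9S/T-A. Within a library, Hnf4g made up 4.87% to 16.9% of the HNF4 level per kb in SI and 4.33% to 7.68% in colon. The log2 ratio of Hnf4a to Hnf4g was 2.83 to 3.82 in WT SI and 3.89 to 4.27 in WT colon, with no overlap, but 2.29 to 4.29 and 3.59 to 4.47 in 9S/T-A, which overlap.

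Cdx1 and Cdx2, the caudal factors of the whole intestine, had SI and colon ranges that overlapped. How often such ranges overlap over all genes was not counted. Cdx1 was at 230 to 294 CPM in WT SI (median 279), 256 to 329 CPM in 9S/T-A SI (median 287), 257 to 374 CPM in WT colon (median 354) and 246 to 362 CPM in 9S/T-A colon (median 317). It was 1.21-fold higher in WT colon (log2 0.28 ± 0.10, adjusted p = 0.0215), and without WT colon replicate 5 the value was 0.25 with an adjusted p of 0.0505. In 9S/T-A the difference was 0.11 (95% interval −0.10 to 0.32, adjusted p = 0.365). Cdx2 was at 95.3 to 116 CPM in WT SI (median 111), 100.4 to 123 CPM in 9S/T-A SI (median 109), 104 to 137 CPM in WT colon (median 124) and 109 to 147 CPM in 9S/T-A colon (median 120). Its log2 difference was 0.13 (−0.05 to 0.30, adjusted p = 0.184) in WT and 0.14 (−0.04 to 0.32, adjusted p = 0.162) in 9S/T-A. With plain library totals Cdx1 was 0.98 and Cdx2 0.84 in WT, and 0.91 and 0.95 in 9S/T-A, all called, where the median of all genes was 0.74 and 0.85. That scaling gave 2 members higher and 6 lower in each genotype. The log2 ratio of Cdx1 to Cdx2 was 1.46 to 1.91 in SI and 1.46 to 2.1 in colon over both genotypes, overlapping in full.

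**Figure D2:**
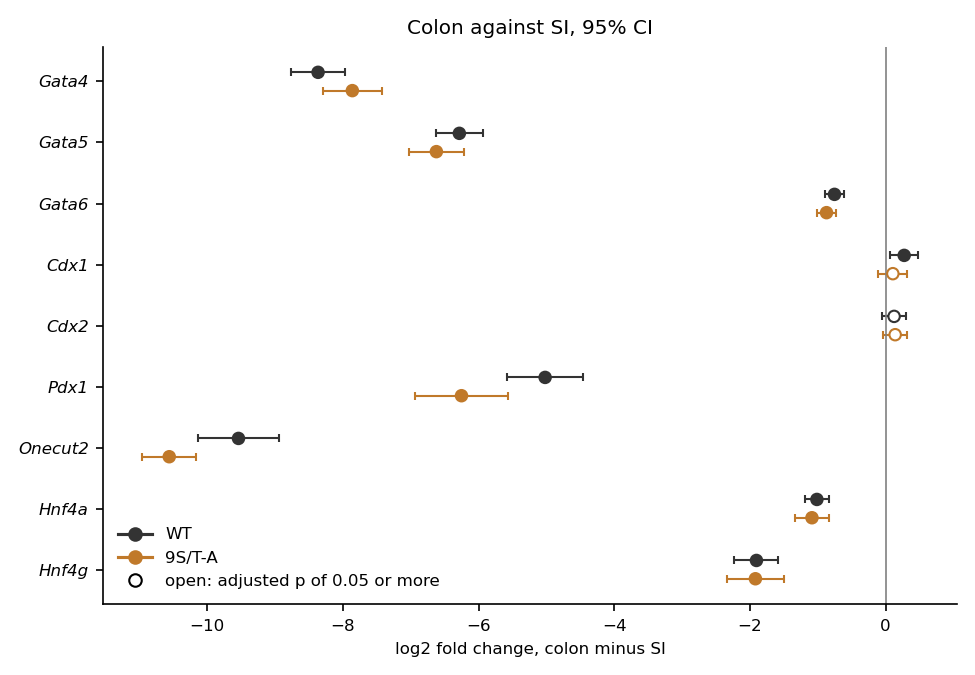
Log2 fold change of each factor in colon against SI for WT (black) and 9S/T-A cells (orange), with 95% intervals from edgeR (n = 6 libraries a group; filled, adjusted p under 0.05). Onecut2, Gata4, Gata5 and Pdx1 lie at −5.02 or below, and Cdx1 and Cdx2 lie near 0 in both genotypes.

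**Figure D3:**
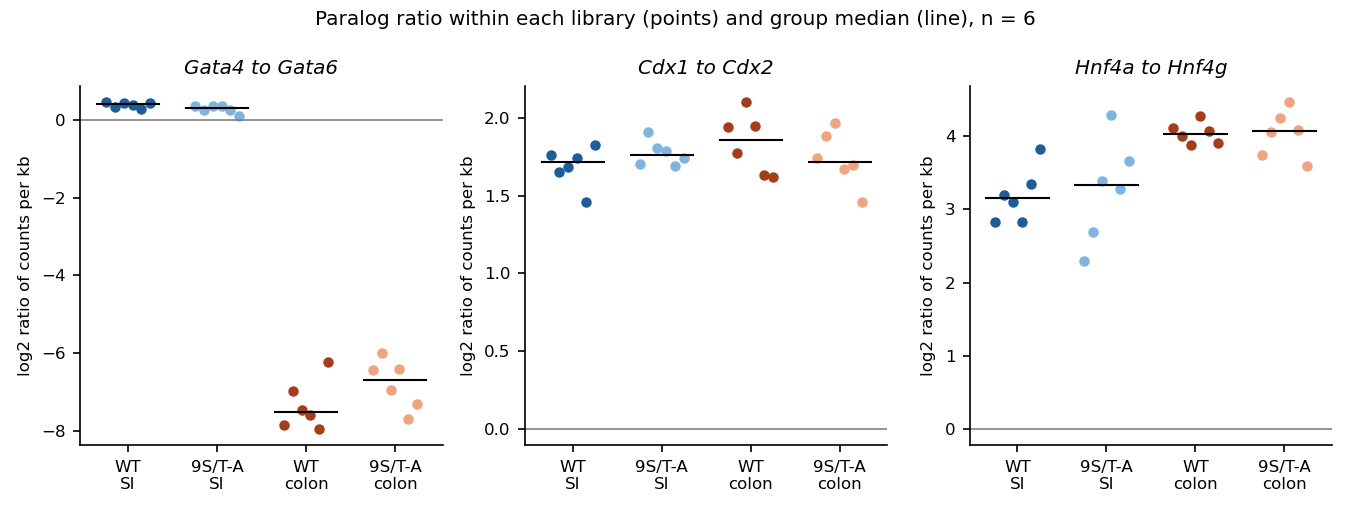
Log2 ratio of 2 paralogs within each library, on counts per kb of exon, by group (points, 6 libraries a group; line = median). Gata4 to Gata6 lies between 0.11 and 0.46 in SI and at −6.00 or below in colon, Cdx1 to Cdx2 stays between 1.46 and 2.1, and Hnf4a to Hnf4g is most spread in 9S/T-A SI.

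Levels of different genes were compared per kb of exon, with the exon lengths of the count files. For Pdx1 that length is 4318 bases, against 2109 windows in its M21 transcripts. Its place in the order therefore depends on the length used. In both SI groups Cdx1 (155.9 ± 14.1 CPM per kb in WT, mean ± SD) and Hnf4a (134 ± 10.6) led, with overlapping ranges, followed by Cdx2 (48.3 ± 3.20), whose range met neither neighbour. In WT SI the next genes, Gata4 (27.6 ± 1.77), Gata5 (24.2 ± 3.20), Gata6 (21.01 ± 0.973) and Hnf4g (15.1 ± 4.06), each overlapped with the next, and Onecut2 (6.30 ± 0.920) and Pdx1 (2.71 ± 0.667) stood apart at the low end. In 9S/T-A SI Gata5 (28.1 ± 2.03) and Gata4 (27.1 ± 2.09) changed places with overlapping ranges, and the order was otherwise the same. In WT colon Cdx1 (193 ± 25.01) stood alone at the top, Hnf4a (68.1 ± 5.96) and Cdx2 (53.9 ± 5.92) overlapped, and Gata6 (12.8 ± 0.921) and Hnf4g (4.13 ± 0.404) followed without overlap. Gata5 (0.316 ± 0.0829), Pdx1 (0.0852 ± 0.0341), Gata4 (0.0843 ± 0.0375) and Onecut2 (0.00832 ± 0.00725) were all under 1 CPM per kb in WT colon, and they were the lowest 4 in 9S/T-A colon as well.

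Between genotypes no member passed edgeR's test in SI. Between 9S/T-A and WT SI, edgeR called 0 of 9 members, beside 1.94% of all 16236 genes (1.03% higher, 0.905% lower). An unadjusted p under 0.05 was seen for 2 members (Gata5 and Pdx1) and for 2556 of all genes. DESeq2 called 1 member (Pdx1) and 779 genes in all. These counts are also the background of the lists read below in SI. The median log2 difference of the 9 was 0.08, beside 0.00 over all genes. Pdx1 had the largest difference. Its mean level was 11.7 ± 2.88 CPM for WT, whereas 9S/T-A libraries averaged 18.2 ± 4.13 CPM (SD, n = 6), and 4 of 6 9S/T-A libraries lay above the highest WT library, although the ranges overlapped. The edgeR log2 difference was 0.63 ± 0.18 (95% interval 0.25 to 1.01, unadjusted p = 0.00285, adjusted p = 0.0899), and DESeq2 gave 0.64 with an adjusted p of 0.0168. Leaving out 1 library at a time gave adjusted p between 0.0432 and 0.194 in edgeR, under 0.05 without 9S/T-A SI replicate 7 (0.72) or without WT SI replicate 2 (0.73, adjusted p = 0.0487). Gata5 averaged 79.3 ± 10.5 CPM for WT, whereas 9S/T-A libraries averaged 92.1 ± 6.65 CPM, a log2 difference of 0.22 ± 0.09 (adjusted p = 0.247).

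The other 7 members lay between −0.03 and 0.09 on the log2 scale in SI, and 5 of them (Gata6, Cdx1, Onecut2, Hnf4a and Hnf4g) turned sign with plain library totals, which moved the median of all genes to −0.11. Relative to that median these 5 stayed positive, at 0.08 to 0.09. The 95% intervals were narrowest for Gata6 (−0.05 to 0.20) and widest for Hnf4g (−0.44 to 0.53), with −0.17 to 0.12 for Gata4, −0.16 to 0.15 for Cdx2, −0.09 to 0.25 for Cdx1, −0.16 to 0.33 for Onecut2 and −0.11 to 0.30 for Hnf4a. A rise as large as the Pdx1 value of 0.63 lay outside each of these intervals.

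Other cell type markers were read in the same comparison, 9S/T-A against WT SI. Summed absorptive markers (6 genes, 0 called by edgeR, 3 at an unadjusted p under 0.05, 2 called by DESeq2) were at 1220 to 3080 CPM in WT, whereas 9S/T-A libraries held 2180 to 4180 CPM. Of Paneth markers 2 of 5 fell by edgeR's test (3 called by DESeq2), the matrix protease Mmp7 (log2 −1.25, adjusted p = 0.00720) and the ribonuclease Ang4 (−1.11, adjusted p = 0.00607), with a list sum of 43500 to 72200 CPM (WT) and 37700 to 58100 CPM (9S/T-A). Of tuft markers 1 of 3 fell (2 called by DESeq2), the tuft cell factor Pou2f3 (−1.18, adjusted p = 0.0197), with a list sum of 32.9 to 70.0 CPM (WT) and 10.5 to 58.7 CPM (9S/T-A). Goblet markers (6 genes, 0 called by edgeR, 1 at an unadjusted p under 0.05, 1 called by DESeq2) summed to 214000 to 319000 CPM (WT) and 227000 to 358000 CPM (9S/T-A). Enteroendocrine markers (6 genes, 0 called by edgeR, 4 at an unadjusted p under 0.05, 1 called by DESeq2) summed to 164 to 436 CPM (WT) and 150 to 358 CPM (9S/T-A), and stem cell markers (4 genes, 0 called by edgeR, 1 at an unadjusted p under 0.05, 1 called by DESeq2) to 733 to 1090 CPM (WT) and 541 to 1030 CPM (9S/T-A). The lowest adjusted p of the stem list was that of Smoc2 (−0.47, adjusted p = 0.0775). None of these markers was at 0 in every library. Their part in the Pdx1 difference was not tested.

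In colon edgeR called 0 of 8 tested members between genotypes, beside 0.318% of all 16997 genes (0.229% higher, 0.0883% lower). An unadjusted p under 0.05 was seen for 0 members and for 1497 of all genes. DESeq2 called 0 members and 254 genes in all. These counts are also the background of the lists read below in colon. Onecut2 did not pass the filter on low counts there. The 5 members that colon cells expressed were tightly bounded, with log2 differences of −0.02 for Gata6 (95% interval −0.14 to 0.10), −0.07 for Cdx1 (−0.28 to 0.14), 0.03 for Cdx2 (−0.15 to 0.21), 0.04 for Hnf4a (−0.15 to 0.23) and 0.04 for Hnf4g (−0.15 to 0.24). Gata4 (0.50, −0.21 to 1.20), Gata5 (−0.11, −0.64 to 0.42) and Pdx1 (−0.57, −1.47 to 0.32) rested on 6 to 101 counts a library, and at that depth a difference smaller than their intervals was not detectable.

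The test of whether the genotype difference itself differed between colon and SI called 0 of 9 members in edgeR. In that test edgeR called 0.412% of all 17953 genes (0.29% higher, 0.123% lower). An unadjusted p under 0.05 was seen for 2 members and for 1740 of all genes. DESeq2 called 0 members and 257 genes in all. Pdx1 was −1.24 ± 0.42 (colon minus SI, unadjusted p = 0.00639, adjusted p = 0.237) and Onecut2 −1.02 ± 0.48 (unadjusted p = 0.0430, adjusted p = 0.490). The Onecut2 value rests on colon libraries with few reads. For Pdx1 this holds for the genotype difference in colon (−0.57), beside 0.63 in SI. Leaving out 1 library at a time moved the Onecut2 value from −1.24 to −0.52, the latter without WT colon replicate 7, and none of these fits called it.

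**Figure D4:**
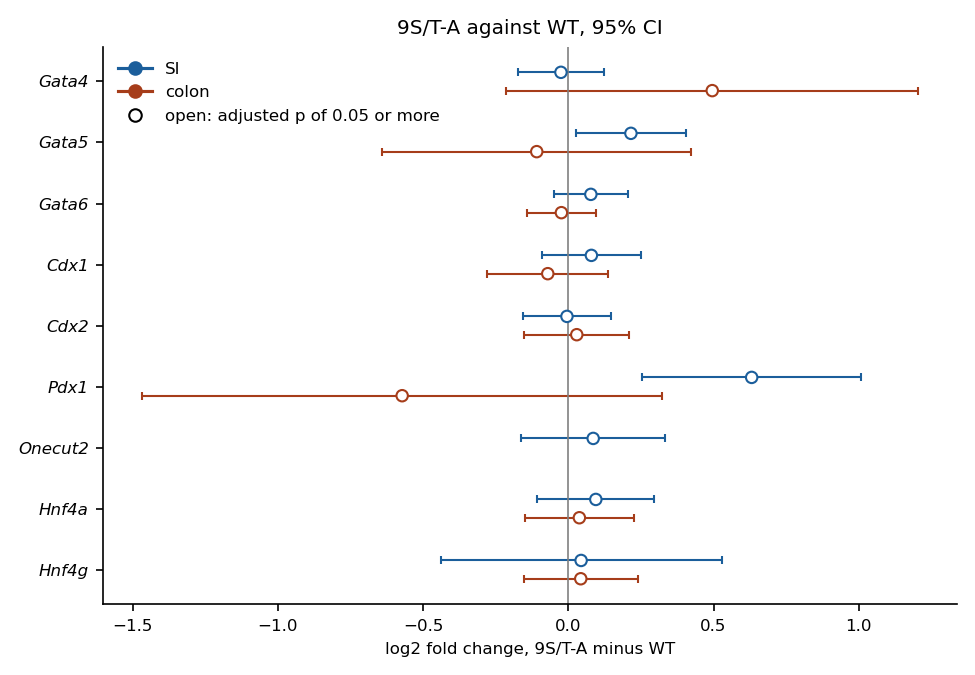
Log2 fold change of each factor in 9S/T-A against WT cells for SI (blue) and colon (red), with 95% intervals from edgeR (n = 6 libraries a group; open, adjusted p of 0.05 or more). All symbols are open, Pdx1 in SI lies farthest above 0 at 0.63, and Onecut2 in colon was not tested.

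The paralogs and cofactors of these families (8 genes) were mostly not expressed in the sorted cells. Cdx4 and Onecut1 were at 0 in all 24 libraries, and Zfpm2, Gata1, Gata3 and Onecut3 stayed at or under 0.542 CPM. Of the 2 that could be tested between tissues, Zfpm1, which encodes the GATA cofactor FOG1, was 113 to 144 CPM in WT SI and 5.49 to 7.62 CPM in WT colon (log2 −4.34 ± 0.09, adjusted p = 1.85e-14), and −3.88 ± 0.14 in 9S/T-A (adjusted p = 4.17e-12). The other, Gata2, a blood and endothelial GATA factor, rose in 9S/T-A colon and is named after its values were seen, since its level lies below the limit for named genes. It was at 0.230 to 0.750 CPM in WT colon and 0.930 to 1.71 CPM in 9S/T-A colon, with no overlap (log2 1.65 ± 0.26, adjusted p = 0.00992), and at or under 0.105 CPM in SI. The test of the difference between tissues gave 1.05 ± 1.01 for it (adjusted p = 0.856). In colon edgeR thus called 1 of the 2 tested genes of this list between genotypes, whereas both had an unadjusted p under 0.05 and DESeq2 called 2. The one not called by edgeR was Zfpm1, at 7.02 to 11.9 CPM in 9S/T-A colon (0.50 ± 0.12, adjusted p = 0.119). In SI 0 of 2 tested genes (Zfpm1 and Onecut3) were called by edgeR or DESeq2, with 0 at an unadjusted p under 0.05.

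All 15 other transcription factors of gut epithelium were tested, and between tissues in WT 8 were higher and 7 lower in colon, with a median of 0.37. In 9S/T-A 7 were higher and 7 lower (median 0.20). With plain library totals these splits were 10 against 1 and 9 against 2. Nr5a2, the nuclear receptor LRH-1, was higher in colon (1.69 in WT, 1.87 in 9S/T-A). Creb3l3, a membrane-bound factor of lipid metabolism, went from 33.0 to 82.5 CPM in WT SI to 0.120 to 0.329 CPM in WT colon (−8.12 in WT, −7.79 in 9S/T-A). Tcf7l2, the Wnt effector, was −0.91 in WT, and Isx, a homeobox factor of vitamin A handling, −1.11 in 9S/T-A, and with plain totals these were −0.19 and −0.30 and not called. Between genotypes 0 of 15 were called in SI (2 with an unadjusted p under 0.05) and 0 of 15 in colon (1 such), by edgeR and by DESeq2 alike.

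Known target genes of the GATA, CDX and HNF4 factors (11 genes) were almost all SI-high. In WT 10 fell and 1 rose in colon (median −5.95), and in 9S/T-A 10 fell (median −6.95). The lists overlap with the absorptive markers above. Alpi, Sis and Fabp2 are in both, as are Apoa4 of the proximal SI list and Car1 and Aqp8 of the colon epithelium list. The part of absorptive cells in these differences was not tested. Lct, which encodes lactase, went from 65.3 to 364 CPM in WT SI to 0.130 to 0.407 CPM in WT colon (log2 −9.26 in WT, −10.12 in 9S/T-A), and Apoc3, an apolipoprotein, was −9.20 and −10.39. The exception was Guca2a, which encodes guanylin, at 0.33 ± 0.12 in WT (adjusted p = 0.0271), a call lost without WT colon replicate 3 (0.29, adjusted p = 0.0621) or without WT colon replicate 6 (0.28, adjusted p = 0.0674). Guca2a was also the 1 target called between genotypes in SI, at 520 to 753 CPM for WT, whereas 9S/T-A libraries held 824 to 1310 CPM (0.79 ± 0.13, adjusted p = 0.00422), while DESeq2 called 3 of the 11 there. In colon 0 of 10 tested targets were called between genotypes by edgeR (1 with an unadjusted p under 0.05) and 1 by DESeq2.

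Genes of proximal SI (6) went the same way in 5 of 6 cases. The apolipoprotein genes Apoa1 and Apoa4 were −9.67 and −9.67 in WT and −10.36 and −10.57 in 9S/T-A. Slc40a1, the iron exporter ferroportin, was instead higher in colon (2.45 ± 0.22, adjusted p = 1.48e-07 in WT; 1.33 ± 0.34, adjusted p = 0.00350 in 9S/T-A). Between genotypes in SI 0 of the 6 were called by edgeR, 4 had an unadjusted p under 0.05 and DESeq2 called 2, with a median log2 difference of 0.69. Apoa4 (0.76, adjusted p = 0.0801) and Cybrd1, the duodenal ferric reductase, had opposite signs, and Cybrd1 was at 10.2 to 17.4 CPM (WT) and 7.19 to 11.7 CPM (9S/T-A), with a log2 difference of −0.54 ± 0.14 (adjusted p = 0.0628). With plain library totals, in the fit of all 24 libraries, and without 9S/T-A SI replicate 2 or WT SI replicate 5, 1 gene of this list was called. In colon 0 of 5 tested proximal genes were called by edgeR or DESeq2, with 0 at an unadjusted p under 0.05. GATA4 is known to repress ileal bile acid genes in proximal SI. Of the 6 listed, 3 were hardly detected in SI, namely the uptake transporter Slc10a2 (at most 0.532 CPM), Fabp6 (0.263 CPM) and Fgf15 (0.168 CPM), and none of these 3 passed 2.97 CPM in colon. In WT 3 of the 5 tested bile acid genes were higher and 2 lower in colon (median 0.52), and in 9S/T-A 2 were higher and 2 lower (median 0.36). The exporter subunits Slc51a and Slc51b were nevertheless higher in SI (−1.85 and −0.88 in WT, −2.52 and −1.15 in 9S/T-A), with the Slc51b calls lost under plain totals (−0.15 and −0.36), and the bile acid receptor Nr1h4 was higher in colon (0.52 and 0.40). Between genotypes 0 of 4 tested bile acid genes in SI and 0 of 5 in colon were called by edgeR or DESeq2, with none at an unadjusted p under 0.05.

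Of the colon epithelium genes (8), 7 were higher and 0 lower in colon in each genotype (median 7.44 and 8.55). Scnn1b, a subunit of the epithelial sodium channel, was at or under 0.0721 CPM in WT SI and at 17.9 to 38.5 CPM in WT colon (log2 8.86), Scnn1g, another subunit, was 8.77 in WT and 9.38 in 9S/T-A, and Car1, a carbonic anhydrase, was 8.86 in 9S/T-A. The gene that was not called, the chloride exchanger Slc26a3, was at 14.8 to 38.3 CPM in WT SI and 24.3 to 30.4 CPM in WT colon. Between genotypes 0 of 5 tested genes in SI and 0 of 8 in colon were called by edgeR or DESeq2, with 0 and 2 at an unadjusted p under 0.05. Stomach genes (10) were nearly absent except for Gkn3 and Pgc in SI. Sox2, the gastric counterpart of CDX2, was at or under 0.0232 CPM in every library, and 4 of the 10 could be tested between tissues. Gkn3 (4.12 to 11.4 CPM in WT SI; log2 −9.44 in WT, −9.96 in 9S/T-A) and Pgc, the pepsinogen gene (3.73 to 7.43 CPM in WT SI; −7.56 in WT), were lower in colon, and in 9S/T-A Muc6 and Tff2 were called higher in colon at levels of at most 1.40 CPM. In SI 0 of 4 and in colon 0 of 2 were called between genotypes by edgeR or DESeq2, with 2 and 1 at an unadjusted p under 0.05.

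**Figure D5:**
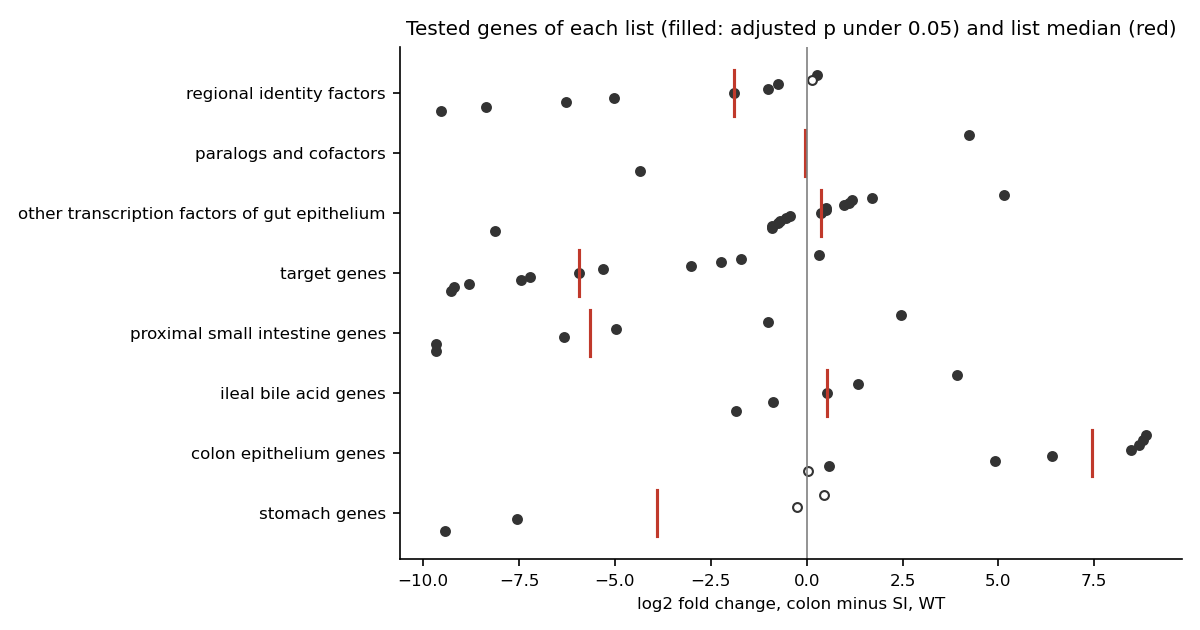
Log2 fold change in colon against SI (WT) of the tested genes of each list, edgeR, 6 libraries a group (filled, adjusted p under 0.05; red, list median). Target genes and proximal SI genes lie mostly far below 0, colon epithelium genes mostly far above, and the regional factors spread from −9.54 to 0.28.

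The genes most like each member over the 24 libraries were found by Pearson's r of log2 CPM among 11056 protein-coding genes, as a description. Since the libraries share the tissue split, the nearest genes of SI-restricted members were other SI-restricted genes. They were Npc1l1 (the intestinal cholesterol transporter), Myrf and Tm4sf5 for Gata4 (each r = 0.998), Npc1l1, Tbx3 and Gimd1 for Gata5 (each 0.998), and Myrf, Gimd1 (both 0.999) and Fam20a (0.998) for Onecut2. For Pdx1 they were Gm10639 and Gsta2 (both 0.991) and Gsta1 (0.990), glutathione transferase paralogs whose counts are uncertain among each other. Gata6 was nearest to Tmem86a (0.989), Alpi (0.987) and Apob (0.986), Hnf4a to Misp (0.991), Tbc1d10b (0.989) and Pitpna (0.987), and Hnf4g to Ugt2a3 (0.987), Sec23a (0.984) and Bche (0.981). Cdx1 (Kctd10 0.903, Shisa5 0.864, Szrd1 0.863) and Cdx2 (Utp3 0.788, Rbm22 0.759, Ddrgk1 0.758) had no partner as close.

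After the 4 group means were subtracted, what remained was the variation among libraries of a group, which shares depth and scaling between genes. Cdx1 then was nearest to Cx3cl1 (0.921), 2510039O18Rik (0.910) and Lrrc41 (0.908), and Hnf4a to Ptpn1 (0.898), Misp (0.876) and Cap1 (0.871). Hnf4g was nearest to Sec23a (0.877), Ugt2a3 and Gk (both 0.875), and Onecut2 to Vcpip1 (0.885), mt-Nd6 (0.882) and Tmem87a (0.855). The values were lower for Gata6 (Trappc12 0.820, Ube4b 0.814, Nipal3 0.760), Gata5 (E030030I06Rik 0.814, Ccdc92 0.808, Dennd5b 0.781), Cdx2 (Ddrgk1 0.737, Rbm22 0.724, Tarbp2 0.720), Pdx1 (Hpse 0.681, Tm2d1 0.663, Fam49b 0.647) and Gata4 (Abhd3 0.609, Cdc42ep2 0.601, Wfdc18 0.595). Misp for Hnf4a and Ugt2a3 and Sec23a for Hnf4g were among the nearest by both measures, as were Rbm22 and Ddrgk1 for Cdx2. Both measures use the same 24 libraries, so this overlap is not independent evidence.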

How the data were processed

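RNA-seq of 24 libraries was used (4 groups of 6). The authors aligned single-end reads with TopHat2 2.1.1 to GRCm38.p3 and deposited, for each Ensembl gene, raw counts made with featureCounts (Subread 1.5.2), counted over exons on the reverse strand with primary alignments only. No normalization had been applied. Gene symbols came from GENCODE M21, and start site windows and their coordinates from RefSeq (GRCm38.p6). Antisense genes share 258 exon bases with Gata5 and 58 with Gata6 on the opposite strand, which the stranded counting keeps apart. Same-group libraries were compared (60 pairs) and 0 were identical.

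Each comparison used edgeR 4.0.16 (R 4.3.3) on the counts as deposited: filterByExpr, TMM factors, quasi-likelihood F test, two-sided, Benjamini-Hochberg over all genes tested, called at an adjusted p under 0.05, on the 12 libraries of both groups, or all 24 for the interaction of genotype and tissue. The study's own tool was DESeq2 1.14.1, and DESeq2 1.42.0 was an alternative. Printed levels are CPM with TMM factors over 24 libraries, and levels between genes are per kb of exon. Scripts were tested on simulated data. Intervals are for the difference between groups, and their width reflects the spread between libraries. Total counts of 36.0 M to 65.8 M make counting error small except for members under about 50 counts.

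The members and lists were chosen with earlier results of these data known. Named genes were all 9 members, and from each list the 2 largest rises and 2 largest falls per comparison of the called genes whose mean log2 CPM reached 1, plus the 3 genes most like each member. One listed gene that met this rule is not reported here. Other list genes named in the text, such as Gata2, Muc6, Tff2, Slc26a3, Fabp6 and the markers, were chosen after their values were seen. A pseudocount of 0.5 CPM was used for likeness. Alternatives were DESeq2, its size factors, plain library totals, other gene filters, sex as a term, the replicate number as a block, all 24 libraries in 1 fit, and leaving out each library.

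Replicate numbers 2 to 7 recur in every group with the same sex. Deviations from group means correlated for every same-number pair of SI and colon libraries (r = 0.122 to 0.486 in WT, 0.106 to 0.572 in 9S/T-A), so the numbers pair the tissues within a genotype by this rule. The series description counts 6 mice in all, whereas the paper reports n = 6 for each genotype. Since every mouse was homozygous for its Atoh1 allele, no mouse gave libraries of both genotypes. Which SI and colon libraries share a mouse is not stated. The p-values therefore weigh differences against the spread between these libraries.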

Additional observations from a re-analysis of the deposited data

Results flagged for a closer look

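Of 36 sets of 6 values (9 members in 4 groups), 2 held a library far from the other 5, and chance alone gives about 1 such set in 20. In WT SI, Gata4 was 94.4 CPM in replicate 6, against 107 to 114 CPM in the other libraries. Also in WT SI, Cdx2 was 95.3 CPM in replicate 7, against 108 to 116 CPM in the others. Both libraries stayed in every comparison, and leaving out either kept the tissue calls of Gata4 and the absence of a call for Cdx2.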

How the results depend on the processing

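Of 300 refits of the called tissue differences of members, 297 kept direction and call, 0 turned and 3 lost the call: Gata6 with plain library totals in both genotypes, and Cdx1 without WT colon replicate 5. Leaving out 1 library at a time gave 7 to 8 members called between tissues in WT, 7 in 9S/T-A, 0 to 1 between genotypes in SI and 0 in colon and for the interaction. Between genotypes in SI, DESeq2 called 1 member and the replicate block 1, in each case Pdx1 (0.64 under both, adjusted p = 0.0168 and 0.0299). Same-number SI libraries of the 2 genotypes correlated at −0.03 to 0.58 (4 of 6 pairs over 0.1). Colon libraries of the same number correlated at 0.03 to 0.77 (5 of 6). The means were 0.18 in SI and 0.32 in colon, beside −0.03 and −0.06 for libraries of unlike number. Between tissues the same-number means were 0.23 in WT and 0.29 in 9S/T-A. Not every pair between genotypes passed 0.1, so these numbers are not taken as pairs. Same-number libraries nevertheless shared some of their deviations on average. The block moved the count of all calls from 315 to 477 in SI, from 54 to 385 in colon and from 74 to 342 for the interaction, and 3 of 6 and 4 of 6 libraries correlated best with their own number. It changed no other member's call, between tissues included. DESeq2 raised all calls to 779 in SI, 254 in colon and 257 for the interaction. Leaving out 1 library at a time gave 188 (without WT SI replicate 3) to 550 calls (without 9S/T-A SI replicate 2) between genotypes in SI, 30 (without WT colon replicate 5) to 72 (without 9S/T-A colon replicate 7) in colon, and 50 to 112 for the interaction. The 24-library fit gave 520 in SI and 103 in colon, and 90 and 89 were called in colon with no gene filter and with sex as a term.

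The values that turned were all of uncalled differences near 0. With plain library totals they were, between genotypes in SI, −0.029 for Gata6, −0.036 for Cdx1, −0.020 for Onecut2, −0.023 for Hnf4a and −0.031 for Hnf4g, in colon −0.0083 for Cdx2 and −0.0034 for Hnf4a, and for the interaction 0.020 for Hnf4a and 0.041 for Hnf4g, while that scaling moved the median of all genes to −0.11 in SI. Cdx2 in SI was 0.0030 with DESeq2 and 0.0033 with its size factors in edgeR, and the Hnf4g interaction was 0.0012 with no gene filter and 0.0091 with the replicate block. Leaving out 1 library moved Cdx2 from −0.043 to 0.015 in SI, −0.026 to 0.067 in colon and −0.045 to 0.071 for the interaction, Hnf4g from −0.13 to 0.16 in SI and −0.12 to 0.15 for the interaction, Hnf4a from −0.010 to 0.091 in colon and −0.13 to 0.0069 for the interaction, and Gata5 in colon from −0.22 to 0.035. The cause was not tested beyond the scaling. Depth limits Gata4, Gata5, Pdx1 and Onecut2 in colon.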
